A study of Mus musculus with 18 samples.

Results

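The 8 genes of the insulin-like growth factor 1 (IGF1) axis examined here were measured in mouse tail tendon fibroblasts (TFs): the ligand gene Igf1, its receptor gene Igf1r, and the IGF binding protein genes Igfbp2, Igfbp3, Igfbp4, Igfbp5, Igfbp6 and Igfbp7. They were taken by gene symbol from the deposited table of estimated counts, in which they are 8 of 55491 rows, and all 8 had enough counts to be tested. RNA was measured by bulk poly-A RNA-seq in 18 libraries of TFs kept for 4 days in culture, 3 libraries in each of 6 groups. Ctrl TFs, labelled wild-type and described in the methods as Cre-negative, and cKO TFs, carrying floxed Hif1a alleles and the ScxCre transgene, were each grown in 20% or 1% O2. In the remaining 6 libraries, Ctrl TFs were treated with gesicles, vesicles that carry Cre recombinase into cells, and grown in the same O2 levels. The cells came from male and female mice aged 4 to 6 months. ScxCre is driven by the regulatory sequence of Scx, a tendon transcription factor gene, so deletion was not aimed at other cell types that a tail tendon culture can hold.

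IGF1 is a secreted growth factor that signals through the IGF1 receptor, a tyrosine kinase, to the PI3K, AKT and mTOR kinases, and in tendon it is known for promoting collagen synthesis and cell growth. IGF binding proteins bind IGF1 in the extracellular space and can block its access to the receptor, prolong its life or deliver it to cells, and proteases such as PAPP-A cleave some of them to release it. IGFBP7 binds IGF1 weakly and is often placed apart from the others, and HIF-1α is a transcription factor subunit that is stabilized when O2 is low.

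Library totals ranged from 6857558 to 51806453 counts, with the smallest in replicate 1 of cKO TFs in 1% O2 and the next smallest at 26967440. Levels are given as CPM (counts scaled to library size) after trimmed mean of M values (TMM) scaling. A floor of 3 counts corresponded to between 0.0579 and 0.437 CPM, well under the lowest member value. Hif1a itself averaged 348 ± 19.6 CPM (SD, n = 3) in Ctrl and 377 ± 72.8 in cKO TFs in 20% O2, and 420 ± 62.9 and 443 ± 54.3 in 1% O2. These are counts over the whole gene, which do not separate a deleted exon from the rest, so they do not check the label. Counts of the cre sequence were found in 5 of the 6 libraries labelled cKO, at up to 5 counts, and in 0 of the other 12. Tendon markers were present, with Scx at 6.19 to 21.5 CPM and Tnmd at 34.96 to 210.0 CPM. Of the marker lists for other cell types, the genes under 1 CPM in all 18 libraries were 2 of 5 for leukocytes (Ptprc and Adgre1), 3 of 4 for endothelium (Pecam1, Cdh5 and Kdr), 4 of 5 for skeletal muscle, 2 of 4 for Schwann cells, 3 of 3 for keratinocytes, 2 of 3 for adipocytes, 1 of 3 for chondrocytes and 0 of 4 for mural cells. Pax7 and Ckm, of the muscle list, were at 0 counts. Other genes of these lists were measured in every library, among them Lyz2 at 8.57 to 22.2 CPM, Tek at 11.3 to 76.5, Sox9 at 20.6 to 50.8, Mbp at 1.81 to 8.30, Des at 1.72 to 7.46 and Fabp4 at 1.53 to 6.97. In bulk RNA, fewer cells of a type and less RNA per cell cannot be told apart.

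The members lie on 6 chromosomes of GRCm38. Igf1 is at chr10:87858265-87937042 on the plus strand and Igf1r at chr7:67952827-68233668, also plus. Igfbp2 (chr1:72824503-72852474, plus) and Igfbp5 (chr1:72857932-72874884, minus) face each other with 5457 bases between their ends. Igfbp3 is at chr11:7206086-7213923 on the minus strand, beside Igfbp1 (chr11:7197782-7202546, plus) at a distance of 3539 bases. Igfbp4 is at chr11:99041244-99054392 (plus), Igfbp6 at chr15:102144362-102149511 (plus) and Igfbp7 at chr5:77349240-77408041 (minus). The antisense gene Igf1os (chr10:87826377-87863381, minus) overlaps the first 5117 bases of Igf1 and held at most 3 counts in any library. Igfbp1 had 0 counts in every library.

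Because HIF-1α is the deleted protein, the 250 bases before each RefSeq start (GRCm38.p6) were searched for the core of the hypoxia response element, written ACGTG or GCGTG, on both strands. A match was present in 12679 of 32851 promoter windows (38.6%) and in windows of 5 of the 8 members. Igf1r had 3 matches, Igfbp2 4 in 1 of its 2 windows, Igfbp3 2, Igfbp7 2 and Igf1 1, while Igfbp4, Igfbp5 and Igfbp6 had none. The Igfbp2 matches at 142 and 141 bases before the start are the 2 strands of 1 CACGTG stretch. The window of Igfbp3 (chr11:7213924-7214173, minus strand) is shown because this gene had the largest fold change of the members between cKO and Ctrl TFs. Its matches, in capitals, begin 188 and 55 bases before the start.
Igfbp3: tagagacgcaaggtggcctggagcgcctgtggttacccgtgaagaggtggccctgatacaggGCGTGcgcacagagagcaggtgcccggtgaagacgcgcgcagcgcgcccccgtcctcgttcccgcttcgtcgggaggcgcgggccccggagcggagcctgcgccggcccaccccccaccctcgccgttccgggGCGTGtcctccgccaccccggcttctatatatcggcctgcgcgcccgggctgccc
The window of Igf1 lies inside an annotated 5′ untranslated exon of a longer transcript and is not shown. A match is a run of letters and not evidence of binding.

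Per kilobase of exon, the transcripts of Igfbp4, Igfbp7, Igfbp6 and Igfbp2 were more abundant in every library than those of the ligand and receptor, while Igfbp3 overlapped Igf1 and Igfbp5 had the lowest median of the 8 genes. Over the 18 libraries, the median level was 470 CPM per kb for Igfbp4 (304 to 818), 413 for Igfbp7 (205 to 719), 265 for Igfbp6 (173 to 384) and 142 for Igfbp2 (80.0 to 302). The range of each of these overlapped that of the next. A gap then separated Igfbp2 from Igfbp3, at a median of 10.1 CPM per kb (6.05 to 38.2), Igf1 at 4.04 (1.62 to 8.52), Igf1r at 2.29 (1.498 to 3.27) and Igfbp5 at 1.997 (0.644 to 6.06). Neighbours within these last 4 also overlapped. As a share of the summed level per kb of the 6 binding protein genes, Igfbp4 made up 27.9% to 47.0% of a library and Igfbp3 0.395% to 3.48%. The share of Igfbp3 averaged 0.664% ± 0.238 (SD, n = 3) in Ctrl and 2.68% ± 1.31 in cKO TFs in 20% O2, and 0.662% ± 0.251 and 1.46% ± 0.401 in 1% O2. The summed level in 20% O2 was 1136 ± 175 CPM per kb in Ctrl and 1111 ± 235 in cKO TFs.

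**Figure D1:**
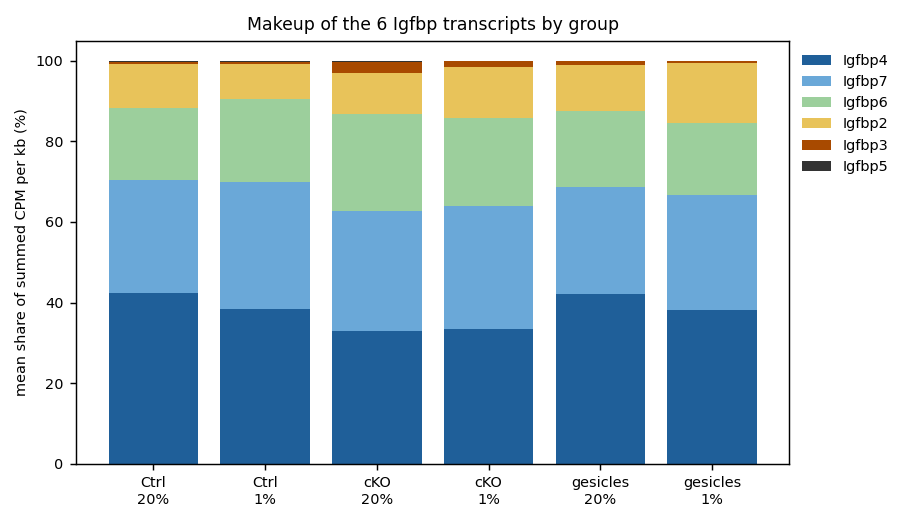
Mean share (%) of each binding protein gene in the summed CPM per kb of the 6 genes, for each group of 3 libraries. Igfbp4, Igfbp7, Igfbp6 and Igfbp2 filled most of each bar, and the band of Igfbp3 was widest in cKO TFs in 20% O2, at 2.68%.

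**Figure D2:**
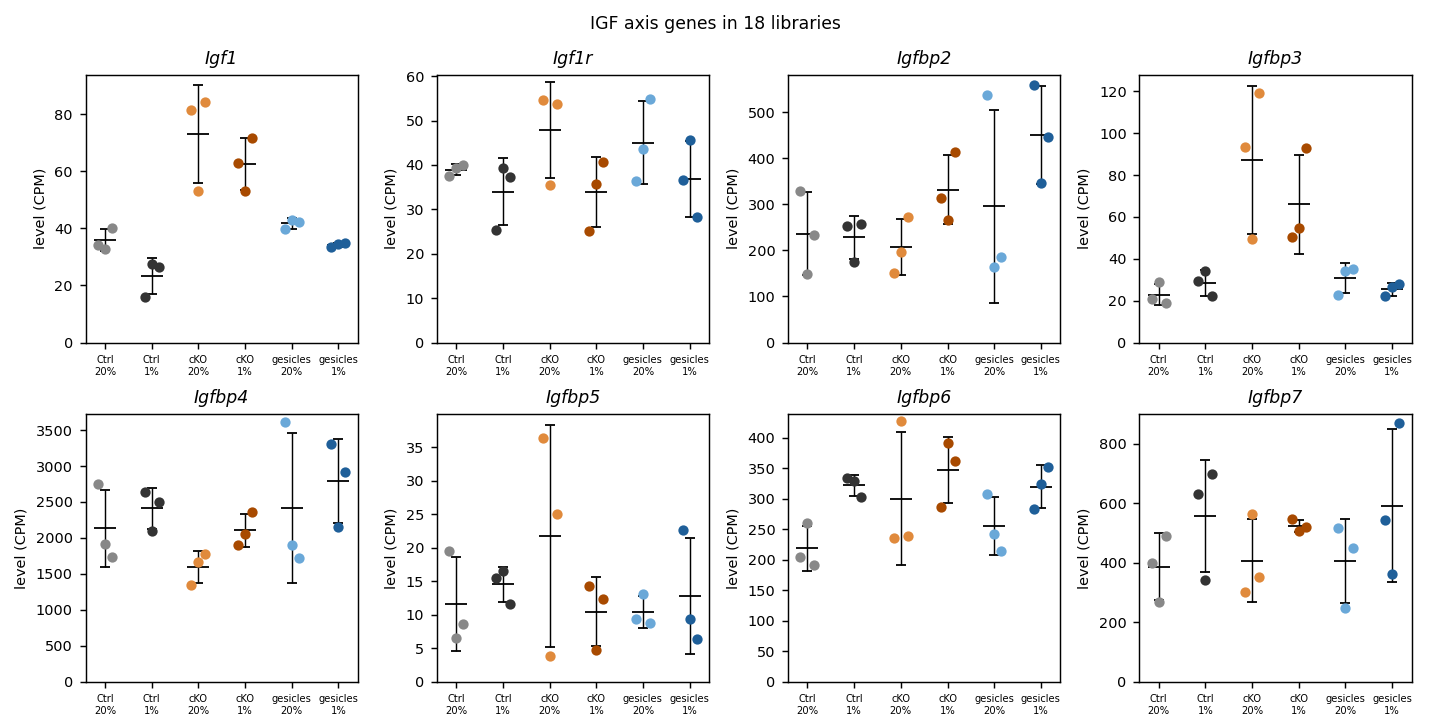
Level (CPM) of the 8 genes in each library (points), with the group mean and SD (bars), in Ctrl, cKO and gesicle-treated TFs in 20% and 1% O2. The cKO points for Igf1 and Igfbp3 lie above all Ctrl and gesicle points, while the groups overlap widely for Igfbp5 and Igfbp7.

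Whether loss of Hif1a was accompanied by a different IGF axis was asked by comparing cKO with Ctrl TFs. Igf1, the ligand, and Igfbp3, the main IGF carrier in serum, were both higher in the libraries labelled cKO. In Ctrl TFs in 20% O2, Igf1 was at 34.3, 33.0 and 40.3 CPM in replicates 1 to 3, and in cKO TFs at 81.6, 53.2 and 84.3 CPM. In 1% O2 it was at 16.1, 27.4 and 26.6 CPM in Ctrl and at 63.0, 53.2 and 71.6 CPM in cKO TFs. Every cKO library was above every Ctrl library, at both O2 levels. Averaged over both O2 levels, Igf1 rose in cKO TFs by a log2 fold change of 1.22 ± 0.16 (SE, adjusted p = 0.00346, edgeR).

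Igfbp3 was at 21.0, 28.7 and 18.9 CPM in Ctrl and at 93.4, 49.4 and 119 CPM in cKO TFs in 20% O2. In 1% O2 it was at 29.2, 34.2 and 22.02 CPM in Ctrl and at 50.3, 54.7 and 92.9 CPM in cKO TFs. The groups again did not overlap at either O2 level. The log2 fold change of Igfbp3 over both O2 levels was 1.57 (SE 0.23, edgeR adjusted p = 0.00556). These were 2 of the 8 members called (a change of 1.5-fold or more with adjusted p below 0.05), beside 3.78% of all genes tested (599 of 15850). This average counts the libraries of both O2 levels as separate samples. When the counts of libraries with the same number were summed over O2 levels, neither gene was called, beside 25 of 16715 genes called. The log2 fold changes were then 1.23 for Igf1 (edgeR adjusted p = 0.0732) and 1.65 for Igfbp3 (adjusted p = 0.0876).

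In 20% O2 alone, 1 member was called, beside 0.347% of genes, and this was Igfbp3, with a log2 fold change of 1.93 ± 0.33 (SE, adjusted p = 0.0348, edgeR). That call was lost without Ctrl replicate 1 (adjusted p = 0.228), 2 (0.0536) or 3 (0.149) in 20% O2, Ctrl replicate 3 in 1% O2 (0.0501), cKO replicate 3 in 20% O2 (0.143) or cKO replicate 2 in 1% O2 (0.0625). Igf1 had a log2 fold change of 1.02 ± 0.22 (SE, adjusted p = 0.0855, edgeR) and passed without Ctrl replicate 1 in 1% O2 (adjusted p = 0.0414). In 1% O2, 0 members were called by edgeR, beside 0.0379% of genes. At an unadjusted p under 0.05 and 1.5-fold or more there were 2, beside 1549 of 15850 genes. DESeq2 called 2, beside 302 of 15850 genes. Here Igf1 differed by 1.42 (SE 0.23, edgeR adjusted p = 0.0576) and Igfbp3 by 1.21 (SE 0.32, adjusted p = 0.202) on the log2 scale. Without cKO replicate 2 in 20% O2 both passed, at adjusted p of 0.0156 for Igf1 and 0.0492 for Igfbp3, and Igf1 passed without cKO replicate 1 in 20% O2 (0.0480). The groups did not overlap for 2 members in 20% O2, beside 21% of genes, and for 3 in 1% O2, beside 27%.

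The third member apart in 1% O2 was Igfbp2, a binding protein that favours IGF2. It was at 253, 175 and 258 CPM in Ctrl and at 313, 267 and 414 CPM in cKO TFs in 1% O2, a log2 fold change of 0.53 ± 0.29 (SE, adjusted p = 0.357, edgeR). In 20% O2 its Ctrl range of 148 to 328 CPM covered the cKO values of 151 to 271 CPM. Igfbp4, an inhibitory binding protein and the target of PAPP-A, went the other way, at 1735 to 2747 CPM in Ctrl and 1341 to 1770 CPM in cKO TFs in 20% O2. Its log2 fold change over both O2 levels was -0.31 (SE 0.13, edgeR adjusted p = 0.146), which did not pass.

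Igf1r was at 37.6, 39.3 and 40.0 CPM in Ctrl and at 54.6, 35.5 and 53.7 CPM in cKO TFs in 20% O2, and its log2 fold change over both O2 levels was 0.15 (SE 0.15, edgeR adjusted p = 0.534). Igfbp6, which prefers IGF2, differed by 0.28 (SE 0.16, adjusted p = 0.251). Igfbp5, a binding protein that attaches to the extracellular matrix, spread most within a group: in cKO TFs in 20% O2 it was at 36.4, 3.87 and 25.0 CPM. The cKO replicate with the least Igfbp5, replicate 2, was also the one with the least Igf1 and Igfbp3 in 20% O2. Over all 8 members the median log2 fold change was 0.18, beside 0.02 over all genes tested.

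Other measures were set beside these differences. The ranges of the mural, tendon and keratinocyte marker sums and of a length index were apart between Ctrl and cKO TFs in 20% O2, and overlapped in 1% O2. The keratinocyte sum was near the floor, at 0.0912 to 0.236 CPM in Ctrl and 0 to 0.0358 CPM in cKO TFs in 20% O2. The split by Xist was the same at both O2 levels. The summed level of 4 mural cell markers was 57.2 to 98.4 CPM in Ctrl and 25.6 to 30.9 CPM in cKO TFs in 20% O2, and 30.9 to 57.2 and 21.6 to 33.1 CPM in 1% O2. That of 9 tendon markers was 10910 to 13112 and 4291 to 9614 CPM in 20% O2, and 5717 to 13326 and 5189 to 8607 CPM in 1% O2. Such a sum mostly reflects its abundant genes. Col1a1 ran from 831 to 8258 CPM over the 18 libraries and Col1a2 from 1165 to 4522, beside 6.19 to 21.5 for Scx. High Xist was found in 2 of 3 Ctrl libraries and 1 of 3 cKO libraries at each O2 level. A length index, the mean log2 deviation from each gene's average for the longest 10% of genes minus that for the shortest 10%, ran from 0.39 to 0.45 in Ctrl and from -0.86 to 0.20 in cKO TFs in 20% O2, and from -0.27 to 0.36 and from -1.33 to -0.08 in 1% O2. Across the 18 libraries it correlated with Igf1 at r = -0.20 and with Igfbp3 at r = -0.26, values that share depth and libraries. The part of the markers and of the Xist split in the differences of Igf1 and Igfbp3 was not tested beyond the alternatives with an Xist covariate and with length and GC offsets.

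**Figure D3:**
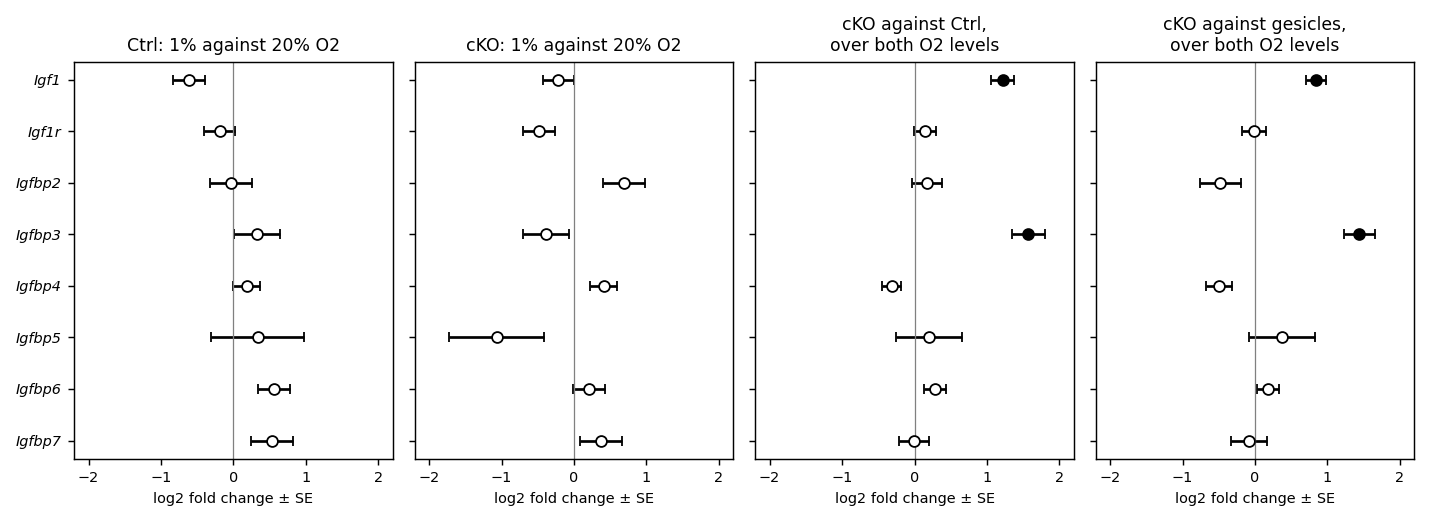
Log2 fold change and SE (bars) of the 8 genes in 4 comparisons, with filled points for genes called (1.5-fold or more, adjusted p below 0.05). Filled points appear for Igf1 and Igfbp3 in cKO against Ctrl TFs (1.22 and 1.57) and against gesicle-treated TFs (0.84 and 1.44), and in neither comparison of O2 levels.

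Whether low O2 changed the axis was asked within each arm. In Ctrl TFs, 0 of 8 members were called by edgeR or DESeq2, beside 1.88% of genes in edgeR. At an unadjusted p under 0.05 there were 2, and 1 also changed 1.5-fold or more, beside 1497 of 15850 genes. Igf1 was lower in 1% O2 in 3 of 3 same-number pairs, with a log2 fold change of -0.61 ± 0.22 (SE, adjusted p = 0.203, edgeR). Igfbp6 was higher in 3 of 3, at 204, 260 and 192 CPM in 20% O2 and 335, 329 and 302 CPM in 1% O2, a log2 fold change of 0.56 (SE 0.22, adjusted p = 0.235). These were the 2 members whose groups did not overlap, beside 29.7% of genes. Igfbp7, a secreted protein also known from blood vessels, was higher in 3 of 3 pairs, by 0.53 (SE 0.29, edgeR adjusted p = 0.410), but its groups overlapped. How many of all genes moved 1 way in 3 of 3 pairs was not counted. The length index was also apart here, at 0.39 to 0.45 in 20% O2 and -0.27 to 0.36 in 1% O2. Across the 18 libraries it correlated with Igfbp6 at r = -0.62, with Igfbp7 at r = -0.57 and with Igf1 at r = -0.20. Its part in these differences was not tested beyond the length and GC offsets. Igfbp2 differed by -0.04 (SE 0.29), Igfbp3 by 0.32 (SE 0.32), Igfbp4 by 0.18 (SE 0.19), Igfbp5 by 0.34 (SE 0.64) and Igf1r by -0.19 (SE 0.21) on the log2 scale.

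In cKO TFs, 0 members were called by edgeR or DESeq2, beside 2.1% of genes in edgeR. At 1.5-fold or more, 1 member had an unadjusted p under 0.05, beside 1845 of 15850 genes. Without the fold change minimum there were 3. These were Igf1r, with a log2 fold change of -0.48 ± 0.22 (SE, adjusted p = 0.242, edgeR), Igfbp2, with 0.69 (SE 0.29, adjusted p = 0.221), and Igfbp4, with 0.41 (SE 0.19, adjusted p = 0.249). Igfbp4 was the 1 member whose groups did not overlap, beside 20.5% of genes, at 1341, 1668 and 1770 CPM in 20% O2 and 1904, 2054 and 2355 CPM in 1% O2. Igf1 differed by -0.21 (SE 0.22), Igfbp3 by -0.39 (SE 0.32), Igfbp5 by -1.07 (SE 0.66), Igfbp6 by 0.21 (SE 0.22) and Igfbp7 by 0.37 (SE 0.29).

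Whether the O2 response differed by genotype was tested as an interaction, which called 0 members and 0% of genes by edgeR and 0 members by DESeq2, with 0 members at an unadjusted p under 0.05. The difference in response was 0.40 (SE 0.31) for Igf1, 0.73 (SE 0.41) for Igfbp2, -0.71 (SE 0.45) for Igfbp3 and -1.40 (SE 0.92) for Igfbp5 on the log2 scale, each at an edgeR adjusted p of 0.9999.

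**Figure D4:**
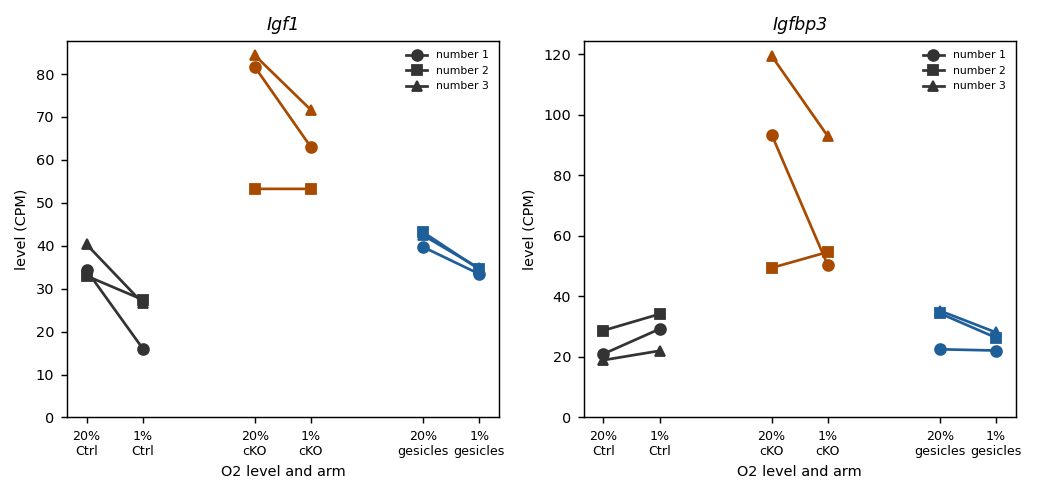
Level (CPM) of Igf1 and Igfbp3 in 20% and 1% O2, with lines joining libraries of the same arm and number. Igf1 lines fall or are level in all 3 arms, Igfbp3 lines rise in Ctrl TFs and fall in gesicle-treated TFs, and the cKO lines lie above the rest.

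Gesicle-treated TFs were compared with untreated Ctrl TFs to set acute delivery of Cre beside the cKO. The paper lists Cre-negative Ctrl mice as carrying floxed Hif1a alleles, while the libraries are labelled wild-type. Hif1a averaged 362 ± 31.0 CPM (SD) in gesicle-treated TFs in 20% O2 and 383 ± 12.3 in 1% O2. As counts over the whole gene, these do not check deletion. Whether gesicles deleted Hif1a was therefore not tested. In 20% O2, Igf1 was at 39.7, 43.2 and 42.4 CPM and Igfbp3 at 22.5, 34.4 and 35.3 CPM after gesicles. Neither was called against Ctrl TFs, with log2 fold changes of 0.22 (SE 0.19) and 0.43 (SE 0.30) at an edgeR adjusted p of 0.9999. Of all 8 members 0 were called in 20% O2 by either tool, beside 0.0247% of genes, with 0 at an unadjusted p under 0.05, and 0 had groups that did not overlap, beside 12.5%.

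In 1% O2, Igf1 was at 33.4, 34.5 and 34.7 CPM after gesicles, above all 3 Ctrl libraries, with a log2 fold change of 0.55 (SE 0.20). Igfbp2 was at 558, 345 and 447 CPM, also above the Ctrl values, with 0.98 (SE 0.40). Both had an unadjusted p under 0.05, 1 of them with 1.5-fold or more, beside 235 of 16174 genes at both limits. Their edgeR adjusted p was 1.0, and 0 members were called by either tool, beside 0% of genes. These 2 were the members apart, beside 6.32% of genes. Over both O2 levels 0 members were called by either tool, beside 0.0495% of genes in edgeR. At an unadjusted p under 0.05 there were 2, Igf1 at 0.39 (SE 0.14) and Igfbp2 at 0.65 (SE 0.28). Of these, 1 changed 1.5-fold or more, beside 304 of 16174 genes at both limits. Igfbp3 was at 0.13 (SE 0.21).

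Within the gesicle arm, 1% against 20% O2 called 0 members by edgeR or DESeq2, beside 2.41% of genes, with 0 at an unadjusted p under 0.05. The log2 fold changes were -0.29 for Igf1 (SE 0.19), -0.29 for Igf1r (SE 0.23), 0.61 for Igfbp2 (SE 0.39), -0.27 for Igfbp3 (SE 0.30), 0.21 for Igfbp4 (SE 0.25), 0.30 for Igfbp5 (SE 0.63), 0.33 for Igfbp6 (SE 0.21) and 0.54 for Igfbp7 (SE 0.35). Igf1 was the 1 member apart, lower in 1% O2, beside 24% of genes. For Igfbp2, replicate 1 in 20% O2 was high, at 536 CPM against 165 and 185 CPM in the others. Without that library the log2 fold change of Igfbp2 was larger, at 1.36, and it was called (edgeR adjusted p = 0.0468). The interaction of gesicles and O2 called 0 members by either tool and 0% of genes, with 0 at an unadjusted p under 0.05.

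Set against gesicle-treated TFs over both O2 levels, the libraries labelled cKO again had more Igf1 and Igfbp3. The log2 fold change was 0.84 for Igf1 (SE 0.14, edgeR adjusted p = 0.00640) and 1.44 for Igfbp3 (SE 0.22, adjusted p = 0.00519), 2 of 8 members called beside 2.49% of genes. This comparison shares its cKO libraries with that against Ctrl TFs. Every cKO library was above every gesicle library for both genes, the only 2 members apart at either O2 level, beside 14.6% of genes in 20% O2 and 17.3% in 1% O2. With same-number libraries summed, Igfbp3 stayed called and Igf1 did not (0.83, edgeR adjusted p = 0.0529), beside 141 of 17144 genes called. Igfbp4 differed by -0.50 (SE 0.18, adjusted p = 0.113) and Igfbp2 by -0.48 (SE 0.28, adjusted p = 0.286).

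The wider pathway was followed in 61 other genes, 56 of which had enough counts to be tested. In cKO against Ctrl TFs over both O2 levels, 1 of the 56 rose and 3 fell, beside 3.78% of all genes tested, of which 174 rose and 425 fell. The median log2 fold change was -0.05 over the 56 genes and 0.02 over all genes. The gene that rose was Ccn3, which encodes a matricellular protein with an IGF binding protein domain, at 116 to 239 CPM in Ctrl and 266 to 516 CPM in cKO TFs in 20% O2 (log2 fold change 1.11, SE 0.24, edgeR adjusted p = 0.0281). The paper, which names this gene Igfbp9, reports by quantitative PCR after 1 week that it trended down in 1% O2 in both genotypes. Here its mean in 20% and 1% O2 was 186 and 100 CPM in Ctrl and 399 and 220 CPM in cKO TFs, not called for O2. The genes that fell in cKO TFs were Grb10, an adaptor that restrains the receptor (-0.88, edgeR adjusted p = 0.0456), Pik3cb, a catalytic subunit of PI3K (-0.83, adjusted p = 0.0290), and Mtor, the kinase of both mTOR complexes (-1.03, adjusted p = 0.0493). None of these 4 was called with same-number libraries summed, at edgeR adjusted p of 0.185 for Ccn3 and up to 0.331 for Mtor, beside 25 of 16715 genes called. Leaving out 1 library ended the call in 4 of 12 fits for Ccn3, 9 for Grb10, 7 for Pik3cb and 10 for Mtor. Of the 12 other alternatives, summing included, 6 ended the call of Mtor, 3 that of Grb10, and 1 each that of Ccn3 and Pik3cb. The 12 include the groups compared only, which are the main fit here. Dropping the fold change minimum, also among them, cannot end a call. For Mtor these included the replicate block (adjusted p = 0.0862), all 18 libraries (0.0734) and the Xist covariate (0.0961), and for Grb10 the replicate block (0.0509) and the Xist covariate (0.0925). With GC and length offsets the log2 fold change was -0.68 for Mtor and -0.62 for Grb10, and both stayed called, although Mtor was not called with the offsets and the block (adjusted p = 0.0657). Grb10 and Mtor followed the length index across the 18 libraries (r = 0.92 and 0.91), as Igf1r did less closely (r = 0.70). Igfbp6 and Igfbp7 went against it (r = -0.62 and -0.57).

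Elsewhere 2 pathway genes were called, each 1 of the 56 tested in its comparison. Of all genes tested, 2.41% were called for O2 in gesicle-treated TFs and 2.49% in cKO against gesicle-treated TFs. Kazald1 encodes a secreted protein with an IGF binding domain. In gesicle-treated TFs it rose in 1% O2 (log2 fold change 1.02, SE 0.26, edgeR adjusted p = 0.0483). Kazald1 was also higher in 1% O2 in Ctrl TFs, by 0.76 (SE 0.23, edgeR adjusted p = 0.124). In cKO TFs it was higher by 0.91 (SE 0.23, edgeR adjusted p = 0.0625), and neither difference was called. The call in gesicle-treated TFs was lost in 14 of 18 fits without 1 library. Ccn1, a matricellular gene of the same family as Ccn3, was lower in cKO than in gesicle-treated TFs (-0.63, SE 0.15, adjusted p = 0.0307), lost in 7 of 18. Igf2, the other ligand gene, was at under 1 CPM in every library. Of the 5 genes not tested, Igfbp1 was at 0 counts, and Insrr, Igfbpl1, Ccn6 and Inpp5d reached 2, 1, 2 and 8 counts.

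The genes outside the pathway whose log2 CPM followed each member most closely over the 18 libraries are given as a description, since the libraries share depth and group. Igf1 followed Marcks (r = 0.93) and Rtl3 (0.90), Igfbp3 followed the matrix proteoglycan gene Lum (0.94) and Tspan7 (0.93), and Igfbp2 followed the proteoglycan gene Bgn (0.81) and Cpox (0.81). Igf1r followed Prag1 (0.94) and Coro7 (0.92), Igfbp4 followed Fam118a (0.90) and Nupl2 (0.86), and Igfbp5 followed Zfp809 (0.83) and Lancl3 (0.78). Igfbp6 followed Ccdc85b (0.96) and Ergic3 (0.95), and Igfbp7 followed Fez2 (0.93) and H4c8 (0.92). Among the members, Igf1 and Igfbp3 correlated at r = 0.79 and Igfbp2 and Igfbp4 at r = 0.81.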

How the data were processed

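Poly-A RNA of 18 TF libraries was sequenced. The authors trimmed the reads (Cutadapt 4.8), mapped them to GRCm38 (STAR 2.7.8a) and estimated counts per gene (RSEM 1.3.3), and the deposited expected counts are whole numbers without normalization. The members and gene lists were chosen with earlier results of these data known. Genes passing filterByExpr went through the quasi-likelihood F test of edgeR 4.0.16 after TMM scaling, with Benjamini-Hochberg adjustment over all genes, in R 4.3.3, with 12 Ctrl and cKO libraries (15850 genes) or all 18 for gesicle comparisons (16174 genes). SEs were obtained from the log2 fold changes and their F statistics. Positions and exon lengths came from GENCODE M21. DESeq2 1.42.0 and the other alternatives are given in the closing section, and offsets for GC and length were added after the data were seen. The tools were tested on simulated data. No label ties numbers to mice, so p-values measure the spread between libraries. Same-number libraries correlated above 0.1 in every pair in Ctrl TFs across O2 (0.271 to 0.458) and between gesicle-treated and Ctrl TFs (0.193 to 0.462), where the replicate block changed no call. Named genes were the members, Hif1a, pathway genes called or without counts, and the 2 genes most alike to each member. Igf2 and Xist were added after their values were seen.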

Additional observations from a re-analysis of the deposited data

Results flagged for a closer look

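Igfbp3 moved in opposite directions with O2 in the same-number pairs of Ctrl and gesicle-treated TFs, although its groups overlapped in both arms. It was higher in 1% O2 in 3 of 3 same-number Ctrl pairs, by 0.48, 0.25 and 0.22 on the log2 scale, and in gesicle-treated TFs it fell by 0.03, 0.38 and 0.33. The difference between the responses was -0.58 (SE 0.43, edgeR adjusted p = 0.9999), so the interaction did not pass.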

How the results depend on the processing

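In cKO against Ctrl TFs in 20% O2, where 1 member was called, the count was 2 with DESeq2, 2 with DESeq2 and the replicate block, 0 with the replicate block in edgeR, 2 without a filter on low counts, 0 with the groups compared only, 2 with all 18 libraries, 0 with the Xist covariate, 3 with GC and length offsets and 3 with these offsets and the replicate block, where Igf1r joined Igf1 and Igfbp3. Over all genes, DESeq2 called 443 of 15850 here, and 473 with the block. Of 15850 genes, edgeR called 55 in the main fit, 64 with the block and 58 with the Xist covariate. It called 281 of 28539 without the filter, 1 of 15118 with the groups compared only and 87 of 16174 with all 18 libraries. With the offsets it called 131 of 15831, with or without the block. Same-number libraries were not correlated in this comparison, so the block is given only as an alternative. In 1% O2, where 0 were called, the count was 2 by DESeq2 (alone and under the replicate block), 2 without the filter, 1 with all 18 libraries, 1 with the Xist covariate and 1 with the offsets with or without the block. Over all genes in 1% O2, DESeq2 called 302 of 15850, and 291 with the block. edgeR called 111 of 28539 without the filter, 14 of 16174 with all 18 libraries and 15 of 15850 with the Xist covariate. With the offsets it called 11 of 15831, and 26 with the block. Leaving out 1 library gave 0 to 2 members in 20% O2, beside 1 to 154 genes, and 0 to 2 in 1% O2, beside 0 to 161. For O2 in gesicle-treated TFs it gave 0 to 1, beside 148 to 504 genes. Over both O2 levels the count stayed 2 in each alternative but the summed libraries, which gave 0, beside 25 of 16715 genes. Here the groups compared only are the main fit, and dropping the fold change minimum cannot end a call. Against gesicle-treated TFs, summing gave 1, beside 141 of 17144 genes. The Xist covariate gave 3, beside 520 of 16174 genes, adding Igfbp4 (-0.61, edgeR adjusted p = 0.011). In Ctrl TFs, Igfbp2 against O2 turned to 0.013 with the replicate block within arm and ranged from -0.29 to 0.27 without 1 library, and Igf1r turned to 0.11 with the offsets, with or without the block. Igfbp5 in gesicle-treated TFs ranged from -0.40 to 0.60 without 1 library. The cause was not tested. Of 96 pairs of member and comparison, 29 changed sign in at least 1 alternative, and 0 of these had been called.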

Other observations

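Igfbp4 differed with the Xist level of the libraries, a comparison made after the data were seen. Libraries with low Xist had more Igfbp4 than those with high Xist in 6 of 6 groups. Each group was split into 1 library against 2, and replicate 1 was the one set apart in each. Within an arm, Xist level and replicate number therefore cannot be told apart. How many of all genes meet this in 6 of 6 groups was not counted. In a fit of 18 libraries with group and Xist level, the log2 difference of high minus low Xist was -0.47 (edgeR adjusted p = 0.0534, not called), and 44 of 16174 genes were called. Igfbp2 differed by -0.66 (edgeR adjusted p = 0.110) and Igfbp6 by -0.18 (edgeR adjusted p = 0.496). Both were higher in the low-Xist libraries in 4 of 6 groups. As same-number libraries may come from the same mouse, the 6 groups may hold fewer mice than libraries.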
